A study of Mus musculus with 15 samples.

Results

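Immediate early genes were examined in the mammary transcriptomes of 15 mice. The 10 genes are Fos, Fosb, Jun, Junb, Egr1, Ier2, Atf3, Nr4a1, Dusp1 and Zfp36, taken by gene name from 52526 genes listed for each mouse. All 15 mice were female nu/nu nude athymic mice (Foxn1nu), which lack a functional thymus, and each was fitted with a subcutaneous osmotic mini-pump at 8 weeks of age or later. For 16 weeks the pump delivered BDE-47 (7 mice), aimed at 0.03 mg per kg of body weight per day, or only the vehicle, PEG300 with 1% DMSO (8 mice). BDE-47 is a tetrabrominated diphenyl ether that was used as a flame retardant. Normal tissue of the left 4th mammary fat pad gave 1 library per mouse. Some mice had carried a xenograft in the region for a separate study, and the labels do not say which. The question put to these genes was whether they rose and fell together from mouse to mouse, as a shared sign of handling at dissection would appear, and whether they differed between BDE-47 and vehicle.

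Immediate early genes are transcribed within minutes of a stimulus, without new protein synthesis, by factors that already sit on their promoters. Serum response factor, which binds the CArG box, works there with ternary complex factors such as Elk1, and CREB binds the cAMP response element. Their mRNAs are short-lived. They are well known to be induced when tissue is excised, warmed or dissociated, so in dissected tissue they are often read as a sign of handling.

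The level of each gene was listed as log2 of reads per 1000000 mapped reads (CPM), and a gene under 1 CPM was listed at 0. Depth was 10.06 to 19.58 M mapped reads per mouse, and 6929 to 12682 genes were above 1 CPM. A value of 0 is not evidence of absence, because among 2742 genes with a mean of 10 to 20 CPM, 28.5% of values were also listed at 0. This share ranged from 2.30% in BDE-47 mouse 3 to 44.5% in BDE-47 mouse 4. Of the 150 values of the 10 genes, 34 were at 0 (22.7%), and those above 0 stood for 21.0 to 2816 reads, with a median of 389.5. All 8 adipocyte and all 8 luminal epithelium markers were above 0 in at least 1 mouse of each group, so the labelled tissue was borne out, but 3 libraries stood apart. Vehicle mice 6 and 8 had all 8 B cell markers above 0, with a mean log2(CPM) over these markers of 6.30 and 6.70 against at most 0.89 in any other mouse, and the lowest luminal marker means of 1.65 and 2.84. BDE-47 mouse 6 had a skeletal muscle marker mean of 13.59. Results of the immediate early genes that turned on these mice are given with and without them.

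**Figure D1:**
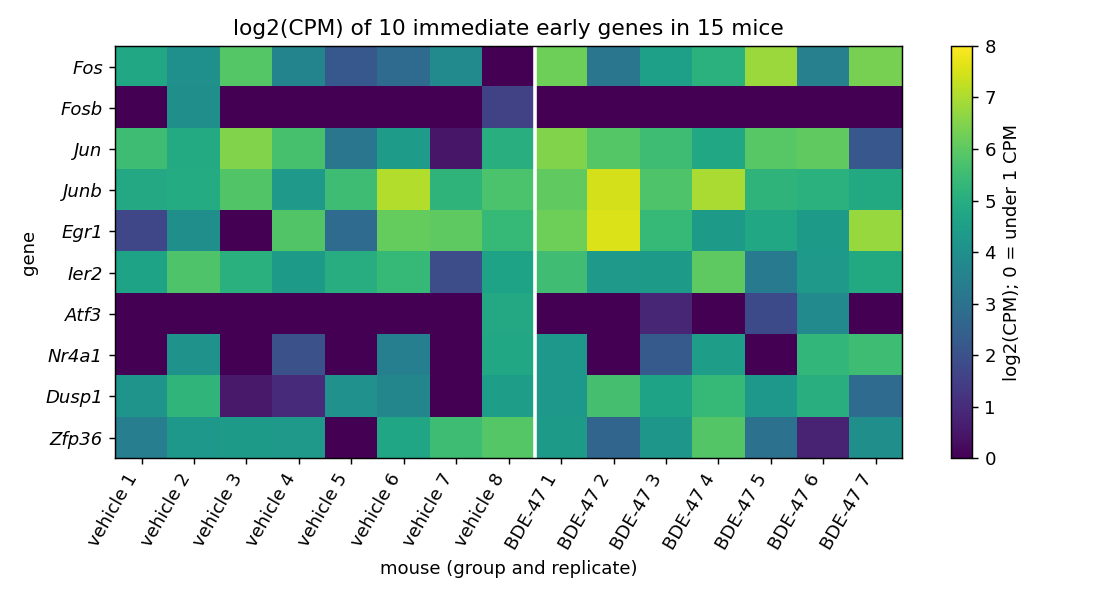
Level of each of the 10 genes (y axis) in each of the 15 mice (x axis, vehicle left of the white line), with colour giving log2(CPM) and the darkest colour a value listed at 0. No mouse was bright in every gene, and Fosb and Atf3 were at 0 in most mice.

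The promoters show the regulatory letters that these genes carry close to their start. RefSeq promoter windows of GRCm38.p6, which run from 250 bases before to 50 bases after the start of the gene, were found for 8 of the 10 genes, and Ier2 and Egr1 had no entry. Both strands were searched for the CArG box, the full cAMP response element TGACGTCA, its shorter form TGACG and the AP-1 site, as TGACTCA or TGAGTCA. The CArG box was in 1 window, that of Zfp36, and in 1.63% of 32851 windows of all genes. The element TGACGTCA was in 1 window, that of Dusp1, against 1.79% of all windows. The form TGACG, which also counts inside a full TGACGTCA, was in 6 of the 8 windows, against 20.8% of all. The AP-1 site in these letters, 5.20% of all windows, was in none of the 8. Other forms of these motifs and sites farther upstream were not searched, so a gene without a match may still carry such an element. Windows are printed for Zfp36 and Dusp1, which hold a CArG box or a full TGACGTCA, and for Fos, added after its letters were seen because the covariation below is measured against it. Capitals mark these motifs.
Zfp36 (chr7:28379179-28379478, minus strand, the CArG box 58 bases before the start): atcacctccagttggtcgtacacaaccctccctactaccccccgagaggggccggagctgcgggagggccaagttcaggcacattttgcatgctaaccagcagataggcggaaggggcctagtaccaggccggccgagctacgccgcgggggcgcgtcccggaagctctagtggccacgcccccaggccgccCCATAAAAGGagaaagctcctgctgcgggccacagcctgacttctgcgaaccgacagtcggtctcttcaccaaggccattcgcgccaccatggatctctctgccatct
Dusp1 (chr17:26508423-26508722, minus strand, the full element 143 bases before the start): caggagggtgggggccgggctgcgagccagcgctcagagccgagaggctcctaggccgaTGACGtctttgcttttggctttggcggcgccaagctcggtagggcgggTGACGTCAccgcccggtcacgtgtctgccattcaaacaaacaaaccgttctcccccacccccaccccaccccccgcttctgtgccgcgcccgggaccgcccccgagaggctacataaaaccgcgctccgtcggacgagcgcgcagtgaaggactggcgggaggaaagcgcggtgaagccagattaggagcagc
Fos (chr12:85473640-85473939, plus strand, TGACG at 129 and 66 bases before the start): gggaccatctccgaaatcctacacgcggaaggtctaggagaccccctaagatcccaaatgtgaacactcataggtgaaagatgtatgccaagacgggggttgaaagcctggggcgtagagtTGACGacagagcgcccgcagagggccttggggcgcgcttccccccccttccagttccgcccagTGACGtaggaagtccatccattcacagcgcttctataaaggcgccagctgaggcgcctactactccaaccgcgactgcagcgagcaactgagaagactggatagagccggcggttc
In the Dusp1 window TGACG lay 191, 143 and 140 bases before the start, and the matches at 143 and 140 lie inside the full element, 1 on each strand. A match is only a run of letters and was not tested as a binding site.

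Fos, Fosb, Jun and Junb encode subunits of AP-1, the dimeric factor in which a Fos protein pairs with a Jun protein. Fos ranged from 0 to 5.91 with a median of 3.71 log2(CPM) in the 8 vehicle mice, and from 3.14 to 6.81 with a median of 5.12 in the 7 BDE-47 mice. It was highest in BDE-47 mice 5 (6.81), 7 (6.37) and 1 (6.24), which were above every vehicle mouse, and it was at 0 only in vehicle mouse 8. The groups overlapped, with the vehicle mean exceeded in 6 of 7 BDE-47 mice. The difference in mean log2(CPM), BDE-47 minus vehicle, was 1.71 (SE 0.84), which did not pass the test (limma adjusted p = 0.982, two-sided exact permutation p = 0.0622). Vehicle mice 6 and 8 were among the lowest 3 vehicle mice for Fos, at 2.80 and 0, and without these 2 and BDE-47 mouse 6 the difference was 1.32 (exact permutation p = 0.115).

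Jun was above 0 in all 15 mice. It ranged from 0.49 to 6.50 with a median of 4.98 log2(CPM) in vehicle mice and from 2.18 to 6.48 with a median of 5.90 in BDE-47 mice. The low values were those of vehicle mice 7 (0.49) and 5 (3.15) and BDE-47 mouse 7 (2.18), and the other 12 mice lay between 4.43 and 6.50. The means were 4.46 ± 1.88 (SD, n = 8) and 5.26 ± 1.46 (SD, n = 7), a difference of 0.79 (SE 0.76) that was smaller than either SD (exact permutation p = 0.394). It was 0.22 without vehicle mouse 7 and 1.30 without BDE-47 mouse 7. Junb, a weaker activator than Jun, had the smallest SD over mice of the 10 genes. Its levels ran from 4.31 to 7.07 with a median of 5.35 in vehicle mice and from 4.87 to 7.50 with a median of 5.81 in BDE-47 mice. The highest were those of BDE-47 mouse 2 (7.50), vehicle mouse 6 (7.07) and BDE-47 mouse 4 (6.99), so both groups held high mice. The means were 5.42 ± 0.83 (SD, n = 8) and 5.93 ± 1.00 (SD, n = 7), and the difference of 0.51 (SE 0.55) did not pass the test (exact permutation p = 0.295). It was 0.25 without BDE-47 mouse 2, and 0.97 without vehicle mice 6 and 8 and BDE-47 mouse 6 (exact permutation p = 0.0714). Fosb, a Fos relative, was above 0 only in vehicle mice 2 (3.99) and 8 (1.55), and was listed at 0 in the other 6 vehicle mice and in all 7 BDE-47 mice (exact permutation p = 0.467).

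Egr1, a zinc finger factor induced by growth factors and stress, ranged from 0 to 6.10 with a median of 4.68 log2(CPM) in vehicle mice and from 4.35 to 7.58 with a median of 5.37 in BDE-47 mice. The vehicle mean was exceeded in all 7 BDE-47 mice, and 3 of them, mice 2 (7.58), 7 (6.77) and 1 (6.24), were above every vehicle mouse. Low values were those of vehicle mice 3 (0), 1 (1.70), 5 (2.78) and 2 (3.99), while the other 4 vehicle mice overlapped the BDE-47 range. The difference was 1.66 (SE 0.81) and did not pass the test (limma adjusted p = 0.982, exact permutation p = 0.111). Without vehicle mice 6 and 8 and BDE-47 mouse 6 it was 2.46, with an exact permutation p of 0.0476 that stands for Egr1 alone, while limma over all genes gave an adjusted p of 0.968. Egr1 was at 6.10 and 5.37 in the 2 vehicle mice left out, so leaving them out lowered the vehicle mean.

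Ier2, a nuclear protein of the early response, had nearly equal means in the groups. It ranged from 1.90 to 5.80 with a median of 4.81 log2(CPM) in vehicle mice and from 3.27 to 6.02 with a median of 4.37 in BDE-47 mice. Vehicle mouse 7 (1.90) lay apart from the other 7 vehicle mice, which were at 4.35 or above. The means were 4.59 ± 1.18 (SD, n = 8) and 4.67 ± 0.91 (SD, n = 7), a difference of 0.08 (SE 0.69, exact permutation p = 0.897), and without vehicle mouse 7 the difference was -0.31. Nr4a1, an orphan nuclear receptor, was listed at 0 in 4 vehicle and 2 BDE-47 mice. Its highest levels were 5.53 and 5.28 in BDE-47 mice 7 and 6 and 4.79 in vehicle mouse 8, with medians of 0.99 and 4.26 in the 2 groups. The difference of 1.33 (SE 1.13) did not pass the test (exact permutation p = 0.263), and it was 0.92, under 2-fold, without BDE-47 mouse 7. Atf3, a stress-induced factor of the ATF/CREB family that often represses its targets, was above 0 in 4 mice. Vehicle mouse 8 had 4.82, BDE-47 mouse 6 had 3.81, and BDE-47 mice 5 and 3 had 1.80 and 0.84. The difference of 0.32 had an exact permutation p of 0.713, and the log2 ratio of the mean CPM had the other sign (-0.35).

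Dusp1 and Zfp36 encode products that end the response. Dusp1 is a phosphatase that inactivates the p38 and JNK kinases. It ranged from 0 to 5.24 with a median of 3.85 log2(CPM) in vehicle mice and from 2.79 to 5.63 with a median of 4.64 in BDE-47 mice. Vehicle mice 7 (0), 3 (0.54) and 4 (0.95) were below every BDE-47 mouse, and the other 5 vehicle mice were within the BDE-47 range. The difference was 1.69 (SE 0.93), with a limma adjusted p of 0.982 and an exact permutation p of 0.0744. Zfp36, or tristetraprolin, binds AU-rich elements and speeds the decay of short-lived mRNAs. It ranged from 0 to 5.88 with a median of 4.32 in vehicle mice and from 0.80 to 5.85 with a median of 3.98 in BDE-47 mice. Vehicle mouse 5 (0) and BDE-47 mouse 6 (0.80) were low, and BDE-47 mice 2 (2.61) and 5 (2.97) were below the other 7 vehicle mice. The difference was -0.52 (SE 0.91, exact permutation p = 0.567), and it was 0.35 without vehicle mice 6 and 8 and BDE-47 mouse 6.

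**Figure D2:**
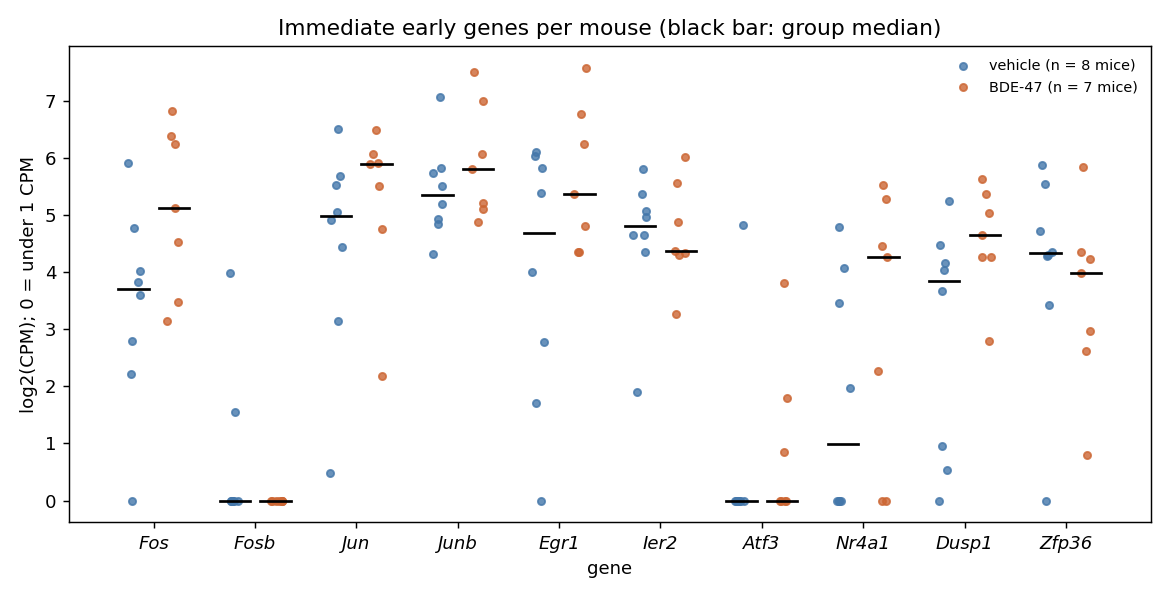
Level in log2(CPM) (y axis) of each gene (x axis), with 1 point per mouse for vehicle (blue, 8 mice) and BDE-47 (orange, 7 mice) and a black bar at the group median. The groups overlapped for all 10 genes, and Fosb and Atf3 lay at 0 in most mice.

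Across all genes, 9506 reached 1 CPM in 7 or more mice and were tested with limma, and 0 passed an adjusted p of 0.05 (0% called), with 442 at an unadjusted p under 0.05 (4.65%). Of the 10 immediate early genes 8 entered this test, all but Fosb and Atf3, and 0 passed. Unadjusted p was under 0.05 for 2 of the 8, Fos and Egr1, both higher with BDE-47, against 1.94% of tested genes on that side. Mean log2(CPM) was higher with BDE-47 for 7 of the 8, against 49.1% of all tested genes, and was past 2-fold for 4, Fos, Dusp1, Egr1 and Nr4a1, against 13.0%. The median difference over the 8 was 1.06, and over all tested genes it was -0.02. The counts describe 8 genes of 1 response and carry no test as a list. Over the settings tried, the limma adjusted p of the 8 genes was at least 0.807. Markers of luminal epithelium were higher on average too, with 8 of 8 higher and 5 past 2-fold. Their summed level was 37.7 to 1909 CPM in vehicle and 163 to 2986 CPM in BDE-47 mice. The marker mean was 5.48 and 6.61 log2(CPM) (exact permutation p = 0.243). These means include vehicle mice 6 and 8 (1.65 and 2.84) and BDE-47 mouse 6 (3.38), and are given only with them. Of 8 adipocyte markers 7 were also higher, with 0 past 2-fold, and of 6 macrophage markers 1 was higher. These counts include vehicle mice 6 and 8 and BDE-47 mouse 6 and are given only with them. Adipocyte means were 4.29 and 5.38 in these vehicle mice and 8.87 to 10.07 in other vehicle mice. They were 7.40 in BDE-47 mouse 6 and 8.42 to 9.56 in other BDE-47 mice. The median summed adipocyte level was 22167 CPM in vehicle and 14302 in BDE-47 mice. Macrophage means were 5.94 and 6.58 in vehicle mice 6 and 8 and 2.64 to 6.36 in other vehicle mice. They were 2.39 to 5.81 in BDE-47 mice. All 7 skeletal muscle markers were higher and past 2-fold. Their mean was 13.59 in BDE-47 mouse 6 and at most 4.38 in any other mouse. Keratinocyte markers had a mean of 1.95 in vehicle and 2.31 in BDE-47 mice (exact permutation p = 0.0336, unadjusted over 12 cell type lists). The part of these cell types in the differences of the immediate early genes was otherwise not tested. With the luminal marker mean as a covariate the Fos difference was 1.18 and the Egr1 difference 1.88. In a bulk sample, fewer cells that express a gene and less RNA of that gene per cell cannot be told apart.

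**Figure D3:**
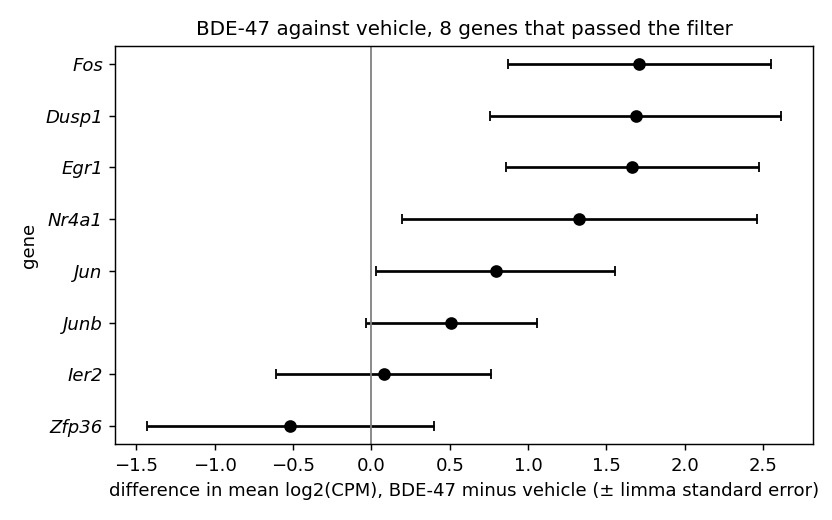
Difference in mean log2(CPM), BDE-47 minus vehicle (x axis), for the 8 genes tested with limma (y axis), with bars of 1 standard error and a grey line at no difference. Fos, Dusp1 and Egr1 lay furthest right at 1.71, 1.69 and 1.66, and only Zfp36 lay left of the line, at -0.52.

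The libraries hold tags of the 3′ end of each transcript, so levels of different genes can be compared without a correction for length. By mean log2(CPM) over 15 mice the order was Junb (5.66), Jun (4.83), Egr1 (4.75), Ier2 (4.63), Fos (4.19), Zfp36 (3.82), Dusp1 (3.67), Nr4a1 (2.41), Atf3 (0.75) and Fosb (0.37), with values of 0 included. No 2 neighbours in this order differed by more than 1 SD of their difference within a mouse. The higher gene of each neighbouring pair was above the next in 4 to 10 of the 15 mice. The 4 was for Atf3 over Fosb, where mice with both genes listed at 0 were tied and not counted. The most abundant member changed from mouse to mouse. Egr1, Jun and Junb each led in 4 mice, and Fos, Ier2 and Zfp36 in 1 each. The summed level of the 10 genes was 113 to 322 CPM with a median of 212 in vehicle mice and 237 to 516 CPM with a median of 324 in BDE-47 mice, and the ranges overlapped. The lowest sum was in vehicle mouse 5 and the highest in BDE-47 mouse 2, where Egr1 made up 37.0% of it.

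No single pair of the 8 tested immediate early genes passed a test of correlation over mice after adjustment, and joint movement of the set was not tested. BDE-47 mouse 1 was among the 5 highest mice for 7 of the 8 tested genes and BDE-47 mouse 4 for 6, whereas vehicle mice 1, 4 and 5 were among them for 0. Between these, high values of different genes fell in different mice. Vehicle mouse 3 had the highest vehicle Fos (5.91) with Egr1 at 0, BDE-47 mouse 2 had the highest Egr1 (7.58) with the lowest BDE-47 Fos (3.14), and vehicle mouse 8 had Fos at 0 with Atf3, Nr4a1 and Zfp36 at their vehicle maximum. Over the 28 pairs of the 8 genes, Pearson's r of log2(CPM) had a median of 0.15 and ran from -0.27 for Dusp1 and Zfp36 to 0.50 for Ier2 and Nr4a1. The pair of Ier2 and Nr4a1 had a permutation p of 0.0529, a Spearman's rho of 0.36 (permutation p = 0.188) and an r of 0.37 without the 2 mice farthest in Ier2, and its p adjusted over 28 pairs was 0.775. No pair reached an r of 0.5, against 4.97% of all 45177265 pairs of tested genes, and 8 pairs (28.6%) were below 0, against 45.9%. With 28 pairs a share of 0 cannot be told apart from 4.97%, and the smaller share below 0 was not tested. The median over all pairs of tested genes was 0.03, with quartiles of -0.17 and 0.24.

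The pairs were no tighter within a group. The median r over the 28 pairs was 0.09 within the 8 vehicle mice and 0.01 within the 7 BDE-47 mice, and 15 of the 28 pairs had the same sign in both groups. It was 0.18 in the 12 mice left without vehicle mice 6 and 8 and BDE-47 mouse 6. Fos with each of the other 7 genes had an r between -0.15 (Dusp1) and 0.14 (Jun), and the lowest permutation p of these 7 was 0.591. The r over 15 mice includes the differences between the groups. Within vehicle mice the r with Fos ran from -0.60 (Nr4a1) to 0.21 (Jun), with -0.58 for Egr1 and -0.46 for Dusp1. Within BDE-47 mice it ran from -0.73 (Dusp1) to 0.46 (Zfp36), with -0.08 for Egr1. These values within groups were not tested. Jun and Ier2 had an r of 0.41 and Ier2 and Dusp1 of 0.46 over 15 mice, but both rest on the outermost mice. Without the 2 mice farthest in the first gene they were -0.31 and -0.05, with vehicle mouse 7, where Jun, Ier2 and Dusp1 were all lowest, among those left out. Some other gene lists covaried more in the same 15 libraries and others did not. The median pair r was 0.99 for 7 skeletal muscle genes, 0.92 for 8 adipocyte, 0.78 for 8 luminal, 0.69 for 6 keratinocyte and 0.67 for 6 macrophage genes, and in the 12 mice it was 0.81, 0.62, 0.29, 0.68 and 0.65. For 11 heat shock and 11 glucocorticoid response genes, which also mark stress, it was 0.04 and 0.12. Some cell type lists were near the immediate early genes too, with 0.18 for 7 endothelium and for 5 mast cell genes and 0.25 for 8 basal epithelium genes (-0.03 in the 12 mice). Floor values differed between the lists, with 8.33% of values at 0 for the 8 immediate early genes, 12.1% for heat shock and 1.67% for adipocyte genes, and their part in the lower r was not tested.

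**Figure D4:**
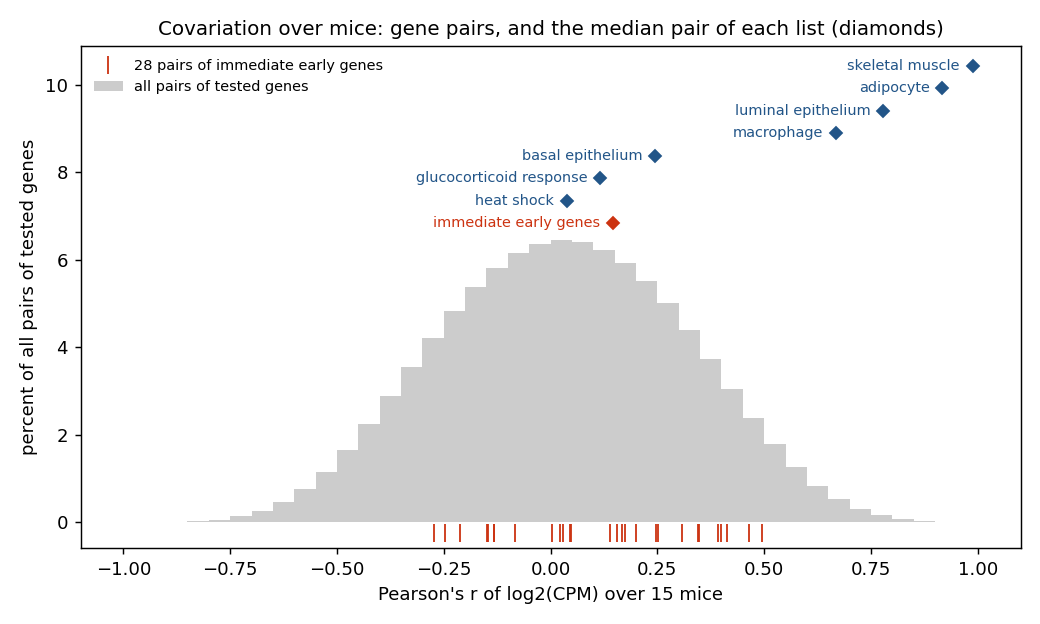
Distribution of Pearson's r over 15 mice for all pairs of tested genes (grey bars, y axis as percent of pairs), with red ticks at the 28 pairs of immediate early genes and diamonds at the median pair of each list. The red ticks spread from -0.27 to 0.50 around a median of 0.15, while muscle, adipocyte, luminal and macrophage lists sat above 0.6.

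Fos was set beside 16 measures of each library, namely depth, genes above 1 CPM, the heat shock and glucocorticoid lists and 12 cell type lists. Its r was -0.06 with mapped reads and 0.13 with the number of genes above 1 CPM. Of the 16, 5 had an unadjusted permutation p under 0.05 and 0 passed after adjustment (lowest 0.135). These were B cell (r -0.63, rho -0.27), luminal (r 0.59, rho 0.49), adipocyte (r 0.56, rho 0.34), heat shock (r 0.55, rho 0.48) and glucocorticoid response means (r 0.52, rho 0.58). Without vehicle mouse 8 and BDE-47 mouse 5, the 2 mice farthest in Fos, the 5 values of r were -0.33, 0.35, 0.42, 0.31 and 0.64. In the 12 mice they were 0.06, 0.14, -0.12, 0.35 and 0.37, so the relations with B cell, luminal and adipocyte content rest on the 3 mice that stand apart. The heat shock relation had an r of 0.86 in vehicle and 0.07 in BDE-47 mice, and the glucocorticoid relation 0.74 and -0.06, differences that were not tested. The other immediate early genes had an r with the luminal mean between -0.46 (Nr4a1) and -0.02 (Dusp1), given as a description of 15 mice.

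**Figure D5:**
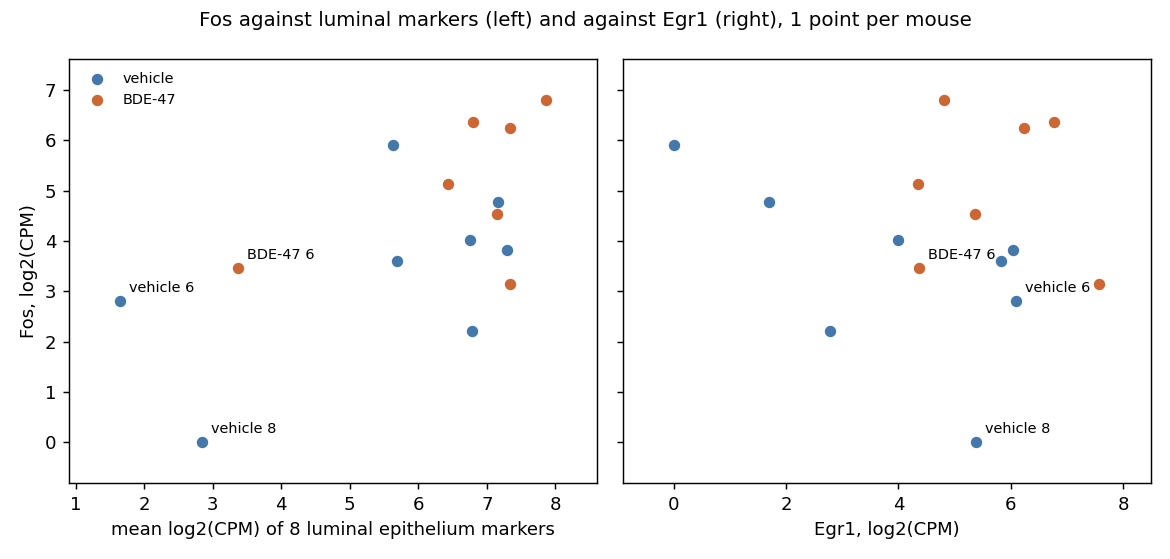
Fos in log2(CPM) (y axis) against the mean log2(CPM) of 8 luminal epithelium markers (left) and against Egr1 (right), with 1 point per mouse, vehicle in blue and BDE-47 in orange. The 3 labelled mice, which had the lowest luminal means, lie at the lower left in the left panel (r 0.59 with them and 0.14 without), and the right panel shows no trend (r -0.13).

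The genes with the highest r with Fos were picked as the extremes of all tested genes, of which only 7 others were immediate early genes. None of those picked was an immediate early gene. Among tested genes the highest r over 15 mice was that of Ly6c1, a surface protein of monocytes and endothelium (0.85), and the next 9 were Stx12 (0.83), Palld (0.83), Arhgef5 (0.82), Golgb1 (0.82), Dkk3 (0.81), Glrx3 (0.80), Sspn (0.79), Cyp51 (0.79) and Emc6 (0.78). In the 12 mice, which also served to pick the genes, these 10 values ran from 0.60 (Golgb1) to 0.85 (Dkk3). With the treatment as a covariate none of the 10 passed, and their limma adjusted p ran from 0.0599 (Stx12) to 0.508 (Glrx3). The lowest were Tm6sf1 (-0.82), Fam206a (-0.80) and Smim8 (-0.77). In limma with the treatment as a covariate, 3 of 9505 genes were associated with Fos at an adjusted p under 0.05 (0.0316%) and 770 at an unadjusted p under 0.05 (8.10%). The 3 were Gipc2, Cxcl14, a chemokine, and Ltf, lactoferrin of secretory epithelium and neutrophils, each with a limma adjusted p of 0.0485. They rose with Fos by 1.29 (SE 0.26), 1.03 (SE 0.21) and 1.02 (SE 0.21) log2(CPM) per unit of Fos. All 3 were lowest in vehicle mice 6 and 8 among vehicle mice and lowest in BDE-47 mouse 6 among BDE-47 mice, and without these 3 mice 0 genes were called, with 453 at an unadjusted p under 0.05. Of the other 7 immediate early genes 0 were called and 0 had an unadjusted p under 0.05. Their slopes on Fos ran from -0.50 (Dusp1) to 0.15 (Zfp36). Egr1 had the lowest p, with a slope of -0.50 (SE 0.25, limma unadjusted p = 0.0539, limma adjusted p = 0.635). With median-of-ratios size factors the limma unadjusted p of Egr1 was 0.0329 and the adjusted p 0.625.

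The wider pathway was read from 5 lists, and limma called 0 genes of any list in the BDE-47 comparison. Of the 9 other AP-1 subunits 6 were tested, 4 of them higher and 2 lower, with a median difference of 0.20, 0 at an unadjusted p under 0.05 and 1 past 2-fold, Batf (-1.33, SE 0.89). Jund, the constitutive Jun protein, differed by 0.55 (SE 0.66), Fosl2 by 0.39 (SE 0.72) and Mafk by -0.31 (SE 0.81). Of the 18 other early transcription factors 13 were tested, 8 of them higher and 5 lower, with a median of 0.22 and again 0 at an unadjusted p under 0.05. The largest differences were those of Egr2, a relative of Egr1 (1.39, SE 0.94), Myc (0.84, SE 1.07), Klf2 (-0.90, SE 0.89) and Klf9, a glucocorticoid target (-0.78, SE 0.69). Cebpd and Klf10 had the highest r with Fos in this list, 0.63 and 0.57 (0.40 and 0.37 in the 12 mice). Of the 25 other early response effectors 20 were tested, 12 of them higher and 8 lower, with a median of 0.39. They included Rhob, a small GTPase (1.58, SE 1.00), Sgk1, a kinase induced by serum and glucocorticoids (1.21, SE 1.11), Pim1 (-1.67, SE 1.13) and Btg1 (-1.52, SE 1.04), with 0 of the 20 under an unadjusted p of 0.05.

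Of the 16 feedback inhibitors other than Dusp1 and Zfp36, 11 were tested, 3 of them higher (27.3%, against 49.1% of all tested genes) and 8 lower, with a median of -0.48, and the list as a whole was not tested. Dusp2, a phosphatase of lymphocytes, differed most (-2.65, SE 1.04, limma adjusted p = 0.982, exact permutation p = 0.0499). Its highest levels were 7.85 and 6.67 log2(CPM) in vehicle mice 6 and 8, which carried the B cell markers, and it was at 0 in 5 BDE-47 and 3 vehicle mice. Without these vehicle mice and BDE-47 mouse 6 the Dusp2 difference was -1.35 (exact permutation p = 0.182). Zfp36l2, a relative of Zfp36, differed by -1.45 (SE 1.03), and Spry2 and Spred1, inhibitors of growth factor signaling, by 0.99 (SE 0.96) and 0.83 (SE 1.06). Upstream kinases and factors were tested for all 20 genes, 10 higher and 10 lower, with a median of -0.07. Creb1 and Atf1, which bind the cAMP response element, were 2 of the lower genes, at -1.98 (SE 0.86) and -2.21 (SE 1.07), with exact permutation p of 0.0544 and 0.0365 and a limma adjusted p of 0.982 for both. In the 12 mice their differences were -1.84 and -2.15, with exact permutation p of 0.158 and 0.0823. Creb1 ranged from 2.38 to 6.62 in vehicle and from 0 to 5.49 in BDE-47 mice, with 0 in BDE-47 mice 2 and 4. Atf1 was at 0 in vehicle mouse 5 and in BDE-47 mice 2, 4 and 7, and the groups of both genes overlapped. Atf2, a factor of the ATF/CREB family, was higher on average (1.66, SE 0.93) and had the highest r with Fos in the list (0.70, and 0.53 in the 12 mice).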

How the data were processed

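Libraries of 15 mice (8 vehicle, 7 BDE-47) were made with the QuantSeq 3′ FWD kit, which reads the 3′ end of transcripts, and the authors mapped reads with STAR 2.5.3a to GRCm38, per the processing notes. Their deposited table of each mouse gives log2(CPM), where a gene under 1 CPM is listed at 0, and was used unchanged. Depth was recovered from the spacing of low values, which were whole reads within 0.1 read for 100% of values, and intervals of single values were not computed. Each table has 52636 entries, and 110 with a name already listed were left out. Nothing states that 2 libraries share a mouse.

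The 9506 genes that reached 1 CPM in 7 or more mice were tested with limma 3.58.1 (R 4.3.3, empirical Bayes with a trend, Benjamini-Hochberg adjustment), for BDE-47 against vehicle and for association with Fos with treatment as a covariate. Single genes were compared with the two-sided exact permutation test over all splits of the mice (smallest possible p 0.000155), and correlations with 100000 permutations, in Python 3.11.15 with numpy 2.4.6, scipy 1.17.1, pandas 2.3.3 and matplotlib 3.10.9. The study's xenograft covariate is not in the labels and was not used. The members and gene lists were chosen with earlier results of these data known. Named genes are the 10 members, the 10 tested non-members with the highest and the 3 with the lowest r with Fos, the genes limma associated with Fos, and in each pathway list the 2 largest differences each way and up to 4 of the highest r with Fos, of which 1 gene is not reported here. Dusp2, Creb1 and Atf1 values by mouse were chosen after they were seen. Ctgf and Mkl2 were matched by older symbols. In simulated data of 9506 genes, limma found 0%, 8.5% and 41% of 200 genes changed by 1, 2 and 3 on the log2 scale in the BDE-47 comparison. The same design for Fos found 0%, 11% and 62.5% of 200 genes planted with an r of 0.6, 0.8 and 0.9. Alternatives were other pseudocounts, filters, size factors, covariates and the omission of mice.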

Additional observations from a re-analysis of the deposited data

Results flagged for a closer look

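Of 19 sets of a gene's values in 1 group, 5 held a mouse far from the others by Dixon's gap test at the 95% level. Chance alone flags about 1 in 20 sets of normally distributed values, a rate that does not hold for sets with many values at 0. Fosb was 3.99 log2(CPM) in vehicle mouse 2, against 1.55 in vehicle mouse 8 and 0 in the others. Jun was lowest among BDE-47 mice at 2.18 in mouse 7. Ier2 was lowest among vehicle mice at 1.90 in mouse 7. Atf3 was 4.82 in vehicle mouse 8 and 0 in the other 7 vehicle mice. Zfp36 was at 0 in vehicle mouse 5, with the other 7 vehicle mice at 3.41 or above. For Fosb, Atf3 and Zfp36 the distance includes values listed at 0, which stand for any level under 1 CPM.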

How the results depend on the processing

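In the BDE-47 comparison limma called 0 genes in all settings but 1, in which vehicle mice 6 and 8 and BDE-47 mouse 6 were left out, a choice made after seeing the data. The 2 called there were Wfdc18, a luminal marker, at 1.78 (SE 0.34) and Chchd2 at -1.48 (SE 0.30), named after their values were seen. The 3 genes associated with Fos became 0 with log2(CPM + 1), median-of-ratios size factors, no filter, a mean of at least 10 CPM, no trend, the number of genes above 1 CPM or the luminal mean as a covariate, without vehicle mice 6 and 8 or those and BDE-47 mouse 6, or with Egr1, Jun or Junb in place of Fos. They became 94 with log2(CPM + 0.1), 21 without treatment as a covariate, and 0 to 75 with each mouse left out, the highest without vehicle mouse 5. The causes were not tested. The labels give the replicate numbers no shared origin. Same-numbered mice had deviations correlated at -0.02 to 0.05, and 3 of 7 vehicle and 4 of 7 BDE-47 mice correlated best with their own number, a hint from the data that was not tested. With a replicate block limma called 0 genes (370 at an unadjusted p under 0.05). The differences with this block were 1.23 for Fos (limma unadjusted p = 0.144), 1.86 for Egr1 (limma unadjusted p = 0.0250) and 1.91 for Dusp1 (limma unadjusted p = 0.0442), each without adjustment over genes. Vehicle mouse 8 has no BDE-47 mouse of its number, so these differences equal those found without vehicle mouse 8. Differences changed sign for Ier2, with leave-one-out values of -0.31 to 0.31 (vehicle mouse 7, BDE-47 mice 1 and 4), for Atf3, -0.16 to 0.92 (BDE-47 mouse 6), and for Zfp36, 0.35 without the 3 mice. Differences of the other 7 immediate early genes kept their sign in these settings, and leave-one-out values were 1.23 to 2.07 for Fos (exact permutation p 0.0239 to 0.127), 1.10 (without vehicle mouse 3) to 1.97 for Egr1, 1.27 to 2.02 for Dusp1 (exact permutation p 0.0332 to 0.136), 0.22 to 1.30 for Jun, 0.25 to 0.74 for Junb, 0.92 to 1.85 for Nr4a1 and -0.79 to -0.22 (without vehicle mouse 2) for Fosb. For Zfp36 they were -1.10 (without vehicle mouse 5) to -0.06 (without BDE-47 mouse 6). The r with Fos changed sign for Egr1 (leave-one-out -0.25 to 0.055), Ier2 (-0.061 to 0.200, and -0.025 with median-of-ratios size factors), Nr4a1 (-0.24 to 0.14, 0.21 without vehicle mice 6 and 8, 0.36 without the 3 mice) and Zfp36 (-0.19 to 0.37, and -0.027 with median-of-ratios size factors). The median r over the 28 pairs was 0.07 to 0.18 with each mouse left out. Values at the 1 CPM floor limit Fosb, Atf3 and Nr4a1 most.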
